A study of Mus musculus with 2 samples.

Results

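The lipoxygenase and cyclooxygenase pathway turns arachidonic acid into leukotrienes, prostaglandins and thromboxane, and 10 of its genes are described here in macrophages given IL-4. They are Alox5, Alox5ap, Lta4h, Ltc4s and Alox15 of the lipoxygenase side, and Ptgs1, Ptgs2, Ptges, Hpgds and Tbxas1 of the cyclooxygenase side. The genes were chosen by name, and their probes were found through the RefSeq accession that the array files give for each probe. They are 10 of 20656 genes named on the array and are read by 11 probes, since Ptges has 2 probes and the other 9 genes have 1 each.

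Phospholipases release arachidonic acid from membranes. On the lipoxygenase side, Alox5 (5-lipoxygenase), helped by the membrane protein Alox5ap (also called FLAP), makes leukotriene A4, which Lta4h turns into leukotriene B4 and Ltc4s joins to glutathione to give the cysteinyl leukotrienes. On the cyclooxygenase side, Ptgs1 (COX-1) or Ptgs2 (COX-2) makes prostaglandin H2, from which Ptges makes prostaglandin E2, Hpgds prostaglandin D2 and Tbxas1 thromboxane A2. Macrophages are a known source of all these mediators, Ptgs2 and Ptges are known for their induction by bacterial products, and human ALOX15 is known as a gene that IL-4 induces in monocytes.

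RNA of bone marrow-derived macrophages (BMDMs), which are macrophages grown from marrow precursors with the growth factor M-CSF, was measured untreated and after 18 h with IL-4, on 1 single-colour Agilent array each. By the study's methods the donors were male Crif1 f/f mice, aged 8 weeks and on the C57BL/6 background, in which Crif1 is flanked by loxP sites and no Cre is named, so both groups carry the floxed allele, and the marrow was cultured for 7 days with 20 ng/ml M-CSF. Nothing read here says whether the 2 arrays came from separate animals or cultures, how many animals were pooled or which IL-4 dose was used, and both arrays lay on the same slide. The conditions have 1 array each, so the design allows no test and no p-value is given.

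The label of the IL-4 array was checked on 4 genes known to be induced by IL-4 in mouse macrophages, and all 4 were higher there, from 5.33-fold for Mrc1 to 216-fold for Arg1, with Chil3 at 14.2-fold and Retnla at least 595-fold. Of 8 macrophage markers, 7 had a probe and all 7 lay well above background on both arrays, with log2 differences from -1.42 for Cd14 to 0.17 for Adgre1, the gene of F4/80, and 3 of them were lower by more than 2-fold. Among all 12744 genes well above background on both arrays, 295 were higher with IL-4 by 2-fold or more, which is 2.31%, and 184 were lower by as much, which is 1.44%. The higher genes made up 61.6% of these, and other ways of scaling the arrays gave 55.2% to 88.3%.

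Values are the scanner software's processed signal with the error that the software gives, and differences are IL-4 minus untreated in log2 units after each array was scaled to its own 75th percentile. Other settings are 10 further choices of scaling, background correction, flagged spots, probe or source table. The error given beside a difference is the SD between spots, taken from probes of like signal that are printed in 10 spots, and the software's error of a difference was 0.204 to 0.210 for the 9 genes measured. Neither covers the spread between cultures. A probe's brightness depends on its sequence, so levels of different genes are not compared. Where a summed level of a marker list is given, it adds the scaled signals of the list's genes, dim ones included. Such a level is set mainly by the brighter genes, but its change between arrays can also come from dim ones.

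The enzymes of the pathway differed between the arrays in both directions. On the cyclooxygenase side Ptgs1 was 3.55-fold and Tbxas1 2.81-fold higher with IL-4, while Hpgds was 2.15-fold lower and Ptgs2 and Ptges were nearly level. On the lipoxygenase side Alox5 was 3.30-fold lower and Ltc4s 1.85-fold higher, Lta4h was level, and Alox15 was well above background on neither array. Of the 9 genes measured on both arrays, 2 thus reached 2-fold upwards and 2 downwards, 1 of which, Hpgds, did so only under some settings, beside 2.31% and 1.44% of all genes measured on both. The median of the 9 differences was -0.03, beside -0.01 for all such genes.

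To show the regulatory sequence of some of the members, the 250 bases before the RefSeq gene start (GRCm38.p6) are printed. They are given for Tbxas1 and Ptgs1, which were higher, for Alox5, which was lowest, and for Ptges, which was level at its brighter probe. They lie at chr6:38918736-38918985 on the plus strand, chr2:36230176-36230425 on the plus strand, chr6:116461179-116461428 on the minus strand and chr2:30903298-30903547 on the minus strand. Each runs 5′ to 3′ towards the gene start, and capitals mark a match to TTCNNNNGAA, the form bound by STAT6, the transcription factor that IL-4 activates.
Tbxas1: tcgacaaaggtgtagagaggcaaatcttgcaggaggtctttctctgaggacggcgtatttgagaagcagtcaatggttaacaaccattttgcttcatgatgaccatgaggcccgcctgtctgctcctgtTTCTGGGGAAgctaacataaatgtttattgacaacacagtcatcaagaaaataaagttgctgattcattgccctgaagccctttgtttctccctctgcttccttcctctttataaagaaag
Ptgs1: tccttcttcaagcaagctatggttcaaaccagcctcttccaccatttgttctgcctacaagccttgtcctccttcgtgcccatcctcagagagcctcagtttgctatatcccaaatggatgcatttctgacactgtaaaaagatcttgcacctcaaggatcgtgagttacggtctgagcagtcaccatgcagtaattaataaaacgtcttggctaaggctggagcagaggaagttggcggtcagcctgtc
Alox5: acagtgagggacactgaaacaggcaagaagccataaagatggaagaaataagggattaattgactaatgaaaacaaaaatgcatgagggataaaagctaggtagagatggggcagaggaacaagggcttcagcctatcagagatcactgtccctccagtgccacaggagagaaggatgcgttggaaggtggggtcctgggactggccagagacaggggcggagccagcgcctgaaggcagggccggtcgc
Ptges: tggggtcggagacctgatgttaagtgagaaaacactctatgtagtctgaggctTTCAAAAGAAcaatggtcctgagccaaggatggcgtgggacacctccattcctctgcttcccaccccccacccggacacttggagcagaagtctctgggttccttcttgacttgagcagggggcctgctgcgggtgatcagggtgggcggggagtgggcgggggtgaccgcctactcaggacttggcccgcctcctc

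Windows of 250 bases before to 50 after the start were found for 8 of the 10 genes, all but Alox15 and Alox5ap. TTCNNNNGAA, which reads alike on both strands, was in 2 of the 8, in Tbxas1 as TTCTGGGGAA starting 121 bases before the gene start and in Ptges as TTCAAAAGAA starting 197 bases before it. The same letters were in 6.95% of all 32851 windows of this length. The general STAT form TTCNNNGAA, which cannot match at the same first base as the other, was in 0 of the 8 and in 8.30% of all windows. The match was thus present in a gene that was 2.81-fold higher and in a gene that was level at its brighter probe. It was not found in the window of Ptgs1, the gene with the largest positive difference. Both genes with a match are among those printed, while Hpgds, Lta4h, Ltc4s and Ptgs2, whose windows had none, are not.

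Alox5, which starts leukotriene synthesis, gave a signal of 556.5 ± 56.0 untreated and 180.5 ± 19.0 with IL-4, a log2 difference of -1.72 with a spot SD of 0.081. The IL-4 array was the lower by far more than either error, and the difference stood at percentile 0.157 of all genes measured on both arrays. In RNA from a whole culture, fewer cells of a type and less RNA per cell cannot be told apart. Under the other settings the difference ran from -1.78 to -1.40, at least 2-fold lower in each.

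Alox5ap, which presents arachidonic acid to Alox5, gave 17210 ± 1721 untreated and 12450 ± 1245 with IL-4, a log2 difference of -0.57 with a spot SD of 0.045. It was 1.48-fold lower, past both errors and short of 2-fold. Its size depended on the scaling, from -0.66 under quantile normalization to -0.24 with the spike-in controls. Lta4h, which makes leukotriene B4, gave 3503 ± 350 and 3689 ± 369, a log2 difference of -0.03 with a spot SD of 0.053. That difference lay within both errors, and its sign turned under some scalings, with a range of -0.08 to 0.30.

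Ltc4s, which makes leukotriene C4, gave 925 ± 92.9 untreated and 1835 ± 184 with IL-4, a log2 difference of 0.89 with a spot SD of 0.058. It was thus higher on the IL-4 array, on which its substrate-supplying enzyme Alox5 was lower, and its difference stood at percentile 97.1. It passed 2-fold under the scalings that centre each array on its median, with 1.10, or use the spike-in controls, with 1.22, and stayed short of it under the other 8 settings.

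Alox15 is the 12/15-lipoxygenase of mouse macrophages and eosinophils. Its probe gave 6.04 ± 6.03 untreated and 5.76 ± 5.74 with IL-4, so the software's error was as large as the signal on both arrays. Its median pixel intensity was 73 untreated and 65 with IL-4, inside the range of the negative control spots, whose median was 57 on both arrays and whose highest values were 82 and 80.5. The lowest signals that counted as well above background were 29.2 and 27.9. No fold is given. A level was not detectable with this probe, before or after IL-4, and Alox15 has no other probe here to set beside it.

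**Figure D1:**
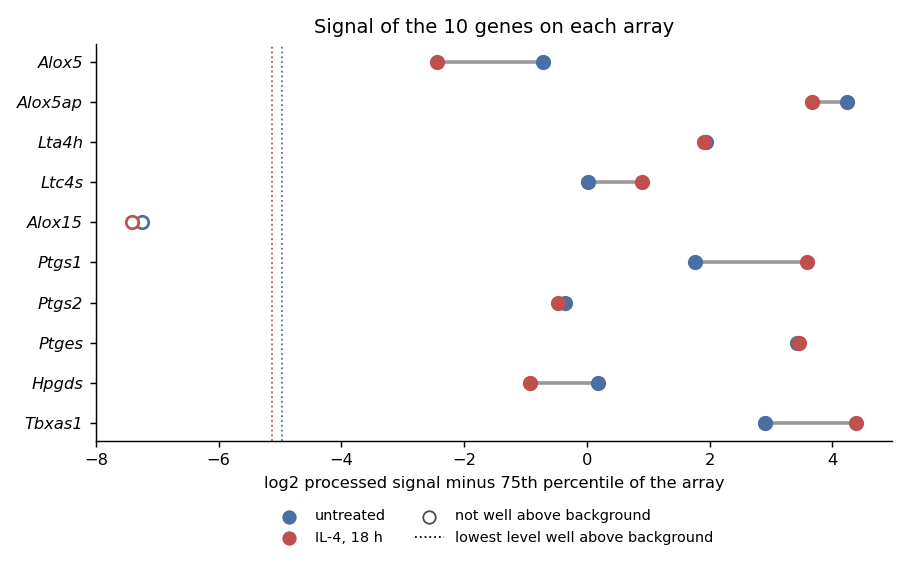
Scaled log2 signal of each of the 10 genes on the untreated array (blue) and the IL-4 array (red), with the value of 1 array per point and a grey line joining the points of a gene. Alox15 (open circles) lies left of the dotted lines, the lowest levels well above background at -4.97 untreated and -5.14 with IL-4, while Ptgs1 and Tbxas1 move right and Alox5 and Hpgds move left with IL-4.

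Ptgs1, the cyclooxygenase known as the constitutive form, had the largest positive difference of the 10 genes, close in size to the negative difference of Alox5. Its signal was 3097 ± 310 untreated and 11770 ± 1177 with IL-4, a log2 difference of 1.83 with a spot SD of 0.050. This stood at percentile 99.5 of all genes measured on both arrays, and it ran from 1.77 to 2.15 under the other settings. The genes with the nearest log2 differences on these 2 arrays were Ehmt1 at 1.82, Rdh1 at 1.82 and Dusp4 at 1.81.

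Ptgs2, the inducible cyclooxygenase, is printed in 10 spots on this array, which gives the best view of spot error among the 10 genes. Of these spots, 2 were flagged as outliers on the IL-4 array, with signals of 529.8 and 658.7, and 8 were used. The 8 spots gave 690 to 745 untreated, with a median of 712, and 689 to 747 with IL-4, with a median of 703, so the raw ranges overlapped almost wholly. After scaling, all 8 spots were lower with IL-4 by a little, and the log2 difference was -0.11 with an SD of 0.041 between its own spots. It exceeded that SD but not the software's error, and its sign turned with the scaling, over a range of -0.17 to 0.21.

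Tbxas1, the thromboxane A2 synthase, gave 6828 ± 683 untreated and 20540 ± 2054 with IL-4, a log2 difference of 1.49 with a spot SD of 0.046. It was higher beyond both errors, stood at percentile 99.1, and ran from 1.40 to 1.82 under the other settings. Its promoter is the one printed above with TTCTGGGGAA. Tbxas1 and Ptgs1, whose product it uses, were the only 2 of the 10 genes to reach 2-fold upwards under the scaling used here.

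Ptges, the inducible prostaglandin E2 synthase, gave 9866 ± 987 untreated and 10810 ± 1081 with IL-4 at its brighter probe, a log2 difference of 0.03 with a spot SD of 0.048. Its dimmer probe gave 295 ± 30.3 and 374 ± 38.0, a log2 difference of 0.24. The brighter probe was level within both errors. The dimmer probe was 1.18-fold higher, past its spot SD of 0.075 and its software error of 0.208. The sign of the brighter probe turned with the scaling, over a range of -0.03 to 0.36.

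Hpgds, the hematopoietic prostaglandin D2 synthase, gave 1037 ± 104 untreated and 517 ± 52.0 with IL-4, a log2 difference of -1.10 with a spot SD of 0.061. It was lower beyond both errors and stood at percentile 1.05. The call of at least 2-fold depended on the processing, since it was -0.89 with median centring, -0.78 with the spike-in controls and -0.98 with normexp background correction.

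**Figure D2:**
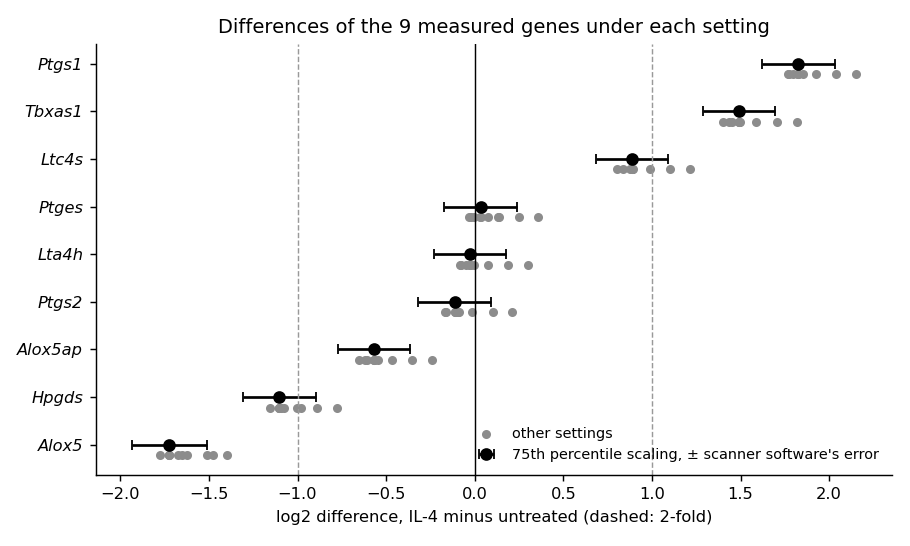
Log2 difference, IL-4 minus untreated, of the 9 genes measured on both arrays (black, with the scanner software's error as bars) and its values under the other settings (grey points), with dashed lines at 2-fold. Ptgs1, Tbxas1 and Alox5 stay past 2-fold under every setting drawn, Hpgds and Ltc4s lie on either side of it, and Ptges, Lta4h and Ptgs2 lie around 0.

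Ordered by their differences, the genes ran Ptgs1, Tbxas1, Ltc4s, Ptges, Lta4h, Ptgs2, Alox5ap, Hpgds, Alox5. Ptges and Lta4h were 0.058 apart, less than either error of that gap. Lta4h and Ptgs2 were 0.089 apart, past the spot error of 0.081 and within the software's 0.289. The other neighbours differed by 0.34 to 0.86, beyond both errors. Genes with a mean signal within 0.5 log2 units of a member's had median differences between -0.05 and 0.06, far smaller than the differences of the outer genes.

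**Figure D3:**
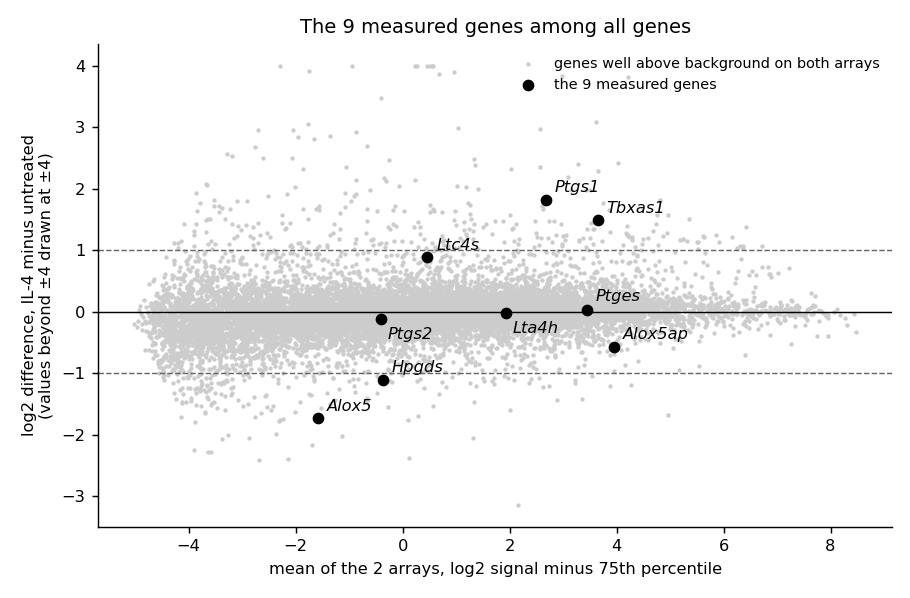
Log2 difference, IL-4 minus untreated, against the mean scaled log2 signal for all 12744 genes well above background on both arrays (grey) and the 9 measured pathway genes (black), with dashed lines at 2-fold. Ptgs1 and Tbxas1 lie above and Alox5 and Hpgds below nearly all genes of like signal.

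Several of the enzymes are also made by other marrow cells, so markers of those cells were read on the same arrays. Mast cells and basophils are known for Hpgds, Alox5 and Ltc4s: of 8 markers, 3 were measured on both arrays, at log2 differences of -0.74 to -0.20, and the summed level of all 8 was -0.51 untreated and -1.21 with IL-4. Cpa3, their carboxypeptidase, was at least 3.51-fold lower and Cma1, a chymase, at least 1.73-fold lower, and Ms4a2, Fcer1a and Mcpt4 were well above background on neither. Neutrophils are known for Alox5 and Alox5ap: all 6 markers with a probe were measured, at -0.80 to 0.30, with a summed level, mostly Camp and Ltf, of 2.65 untreated and 2.18 with IL-4. Both summed levels were lower with IL-4, as were Alox5, Alox5ap and Hpgds and unlike Ltc4s, and their part in those results was not tested. A lower sum was not particular to these cells. The summed level of the macrophage markers went from 8.34 untreated to 8.13 with IL-4, and that of the lymphocyte markers from 0.00079 to -0.15. The platelet sum was also lower and the eosinophil sum nearly level, as given below. In the mast cell and basophil sum, the IL-4 signals of Cpa3 (6.37 ± 6.34) and Cma1 (6.44 ± 6.43) were not well above background. Part of the drop of that sum thus rests on readings at background, and its size is uncertain.

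Platelets and their precursors are known for Ptgs1 and Tbxas1. Of 6 markers, 5 were measured on both arrays, at log2 differences from -1.44 for Itga2b to 0.01, and the sixth, Gp6, was well above background on neither. The summed level was 5.57 untreated and 5.23 with IL-4, nearly all of it from Pf4, which BMDMs also express and which had levels of 5.54 and 5.21. Beside Pf4, the other 4 measured were Itga2b, Ppbp at -0.56, Gp1bb at -0.10 and Gp9 at 0.01. The probes of Gp1bb disagreed, with -0.10 at the brightest and -0.78 at another measured on both arrays. The part of platelets in the Ptgs1 and Tbxas1 results was not tested. Eosinophils are known for Alox15: of 6 markers, Epx, Prg3 and Il5ra were well above background on neither array, while Prg2 at a log2 difference of 0.37, Ccr3 at 0.28 and Siglecf at -0.02 were so on both. The other probe of Siglecf gave -0.18. The summed level, mostly Siglecf, was 0.092 untreated and 0.095 with IL-4. Of 6 lymphocyte markers 2 were measured on both arrays, at -0.31 and -0.0018.

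The wider eicosanoid pathway was read from a list of 66 further genes arranged by role, all of which had a probe. Of these, 47 were measured on both arrays, 6 on 1 array only, which gives a bound, and 13 on neither. Of the 53 measured on 1 array or both, 4 were higher by 2-fold or more and 2 lower by as much, beside 3.06% and 3.35% of the 14073 genes that passed in the same way. The median difference of the 47 was -0.03, beside -0.01 for all genes. For each role the genes past 2-fold and the brightest 2 are named.

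Upstream of both enzyme families stand the phospholipases and lysophospholipid enzymes, of which 12 of 16 passed, 1 was higher and 0 were lower. Pla2g5, a secreted phospholipase A2, gave 13.8 ± 6.57 untreated, not well above background, and 127 ± 14.0 with IL-4, which makes it at least 4.06-fold higher. It passed only through the IL-4 array, and its other probe was well above background on neither array. Pla2g7, which inactivates platelet-activating factor, had a log2 difference of -0.60 at both its probes, and Pla2g15, a lysosomal phospholipase A2, had a log2 difference of 0.74. Pla2g4a, the cytosolic phospholipase A2 that releases arachidonic acid, was named after its value was seen and had a log2 difference of 0.45.

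Of the 4 genes of fatty acid supply, all 4 were negative and within 2-fold, with log2 differences for Acsl4, which activates arachidonic acid, of -0.06 and for the elongase Elovl5 of -0.12. The desaturases Fads1 and Fads2, named after their values were seen, had log2 differences of -0.61 and -0.35. The values of Acsl4 and Elovl5 are smaller than the shift between scalings, which took the median of all genes from -0.01 to 0.31 with the spike-in controls. Of 5 other lipoxygenases, Alox12, the platelet type, was measured on both arrays and had a log2 difference of -0.57. Alox8 was well above background only with IL-4, at least 1.11-fold higher, and Alox12b, Alox12e and Aloxe3 were so on neither array.

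Past Ltc4s, the enzymes that process cysteinyl leukotrienes and lipoxins had 8 of 9 genes measured, 1 higher and 0 lower. Ggt5, a gamma-glutamyl transferase that turns leukotriene C4 into D4, gave 48.3 ± 7.83 untreated and 160 ± 17.0 with IL-4, a log2 difference of 1.63, in the same direction as Ltc4s. Dpep1, which turns leukotriene D4 into E4, had a log2 difference of 0.29, and Cotl1, which binds Alox5, had a log2 difference of 0.20. Dpep2, of the same role and named after its value was seen, had a log2 difference of -0.46, opposite to Dpep1. Of the 8 genes measured, 3 had positive and 5 negative differences, with a median of -0.24. Mgst2, which can also make leukotriene C4 and was named after its value was seen, had a log2 difference of -0.88, opposite to Ltc4s. The 2 probes of Gstm4 disagreed, at -0.51 and 0.05.

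The other prostanoid synthases had 6 of 7 genes measured, and 0 were past 2-fold. Ptges3, the cytosolic prostaglandin E2 synthase and HSP90 cochaperone, had a log2 difference of 0.06 at its brightest probe and up to 0.49 among 4 probes, and Akr1b3, an aldose reductase that can make prostaglandin F2α, had a log2 difference of 0.02. Among the 9 synthases measured at this step, the members included, Tbxas1 and Hpgds were thus the ones past 2-fold.

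Of 5 inactivating enzymes, all were measured, 0 were higher and 1 was lower. Hpgd, the 15-hydroxyprostaglandin dehydrogenase that starts the breakdown of prostaglandins, gave 2310 ± 231 untreated and 985 ± 98.7 with IL-4, a log2 difference of -1.33. Its other probe gave -1.36. Ephx1, an epoxide hydrolase, had a log2 difference of 0.07 and Ptgr1, which inactivates leukotriene B4, had a log2 difference of -0.13. The 3 transporters stayed within 2-fold, with log2 differences for the prostaglandin importer Slco2a1 of 0.05 and for the leukotriene C4 exporter Abcc1 of -0.02.

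Among 9 prostanoid receptors 6 passed, 1 was higher and 0 were lower. Ptgir, the prostacyclin receptor, gave 253 ± 26.4 untreated and 1003 ± 100.5 with IL-4, a log2 difference of 1.89. Ptger2, an E2 receptor, had a log2 difference of 0.32, and Tbxa2r, the thromboxane receptor, which was named after its value was seen, had a log2 difference of -0.65 where Tbxas1 had a log2 difference of 1.49. Among 8 receptors of leukotrienes and other lipid mediators 7 passed, 1 was higher and 1 was lower. Ltb4r1, the high-affinity leukotriene B4 receptor, gave 170 ± 18.3 and 589 ± 59.3, a log2 difference of 1.69, while Fpr2, a formyl peptide receptor that also binds lipoxin A4, gave 243 ± 25.1 and 79.9 ± 10.1, a difference of -1.71. Cysltr1, a receptor for the products of Ltc4s, had a log2 difference of -0.24. Cysltr2, the other such receptor listed, was named after its value was seen. It was well above background only with IL-4, at a dim 41.9 ± 8.11, and at least 1.34-fold higher.

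**Figure D4:**
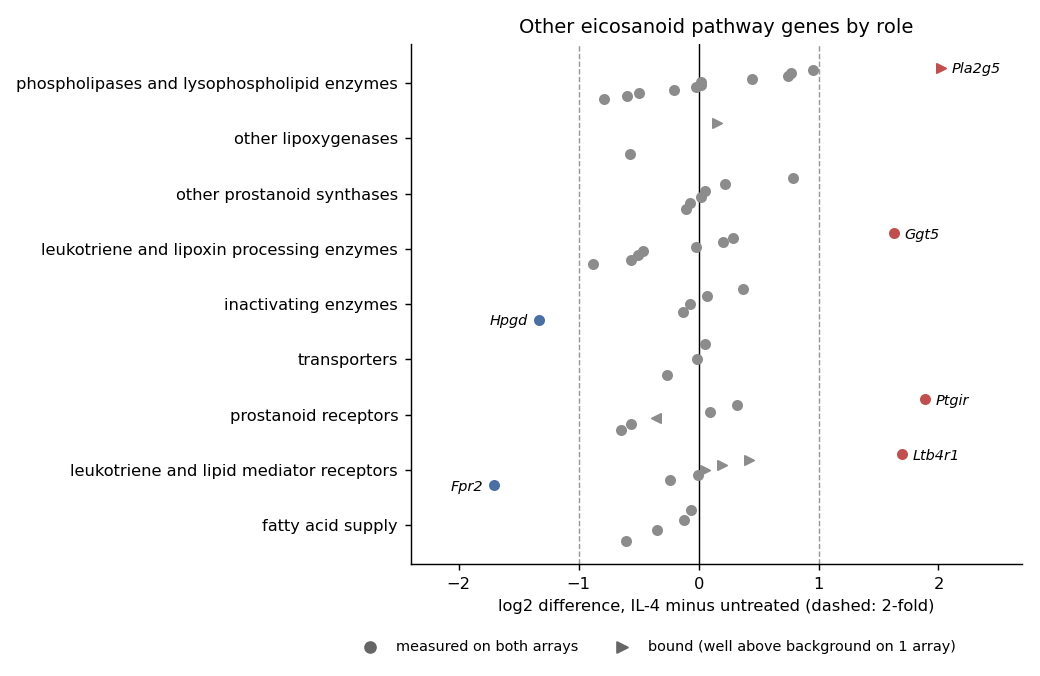
Log2 difference, IL-4 minus untreated, of the 53 further pathway genes measured on 1 array or both, by role, as circles where measured on both arrays and as triangles where 1 array gives a bound. The 6 genes past 2-fold (dashed lines) are named, with Pla2g5, Ggt5, Ptgir and Ltb4r1 in red to the right and Hpgd and Fpr2 in blue to the left.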

How the data were processed

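Total RNA of untreated and IL-4-treated BMDMs was hybridised to 1 single-colour (Cy3) Agilent array each. The files deposited by the authors come from the scanner software Feature Extraction, version 10.10.1.1. They hold an intensity per spot from which the software took background and spatial trend, with no step that makes arrays alike. A second table from the authors holds log2 values, and its tool, centring and reference are not given in the sources used here. Its column medians were 0.16 untreated and 0.016 with IL-4, and 99.7% of probes gave the same IL-4 minus untreated difference as the scaled scanner values within 0.01, so scale and direction are known.

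Control spots were left out, as were the 257 spots flagged as outliers on either array, which removed 5 probes. Spots of a probe were averaged on the log2 scale, and an array's 75th percentile (9.84 untreated and 9.94 with IL-4) was taken off its values. Of 39424 probes, 59.0% and 56.5% were well above background, which with the number of arrays limits the precision. RefSeq accessions named 27229 probes. A gene was read from its probe with the highest mean log2 signal. A gene well above background on 1 array only was given a bound: on the dim array it was set to the lowest signal that passed there, or to its own signal if higher, and a gene on neither was given no fold. A summed level is the log2 of the summed scaled signals of a list. Groups were taken from the source labels.

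Beyond the 10 genes, the text names list genes past 2-fold, the brightest 2 measured genes of each role, the 4 IL-4-induced genes and the 3 genes nearest to Ptgs1, the member with the largest difference in size under the main scaling. The members and lists were chosen with earlier results of these data known. Alternatives covered scaling, background correction with limma 3.58.1 in R 4.3.3, flagged spots, probe choice, the processed table, the cutoff and the filter on dim probes. Python 3.11.15, numpy 2.4.6 and pandas 2.3.3 were used, and the counting was tested on simulated data.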

Additional observations from a re-analysis of the deposited data

How the results depend on the processing

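The differences of Ptgs1, Tbxas1 and Alox5 kept their direction and stayed at least 2-fold under all 10 other ways of processing tried, and those of Hpgds, Ltc4s and Alox5ap kept their direction. The signs of Lta4h and Ptges were kept in 7 of 10 and that of Ptgs2 in 8 of 10. Scaling moved the median of all genes from -0.01 to 0.20 with median centring, 0.31 with spike-in scaling and 0.09 with no scaling, and the medians of the lists moved with it. The members' median went from -0.03 to 0.19 with median centring, 0.30 with spike-in scaling and 0.074 with no scaling, and that of the further pathway genes from -0.03 to 0.19, 0.30 and 0.074. Changes below about 0.3 therefore have a sign only relative to a chosen scaling.

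The 2 members at least 2-fold lower became 1 with median centring, spike-in scaling, normexp background correction (offset 50, on the median pixel intensity) and a log2 cutoff of 1.5. The 2 members higher became 1 with that cutoff and 3 with median centring or spike-in scaling. Of the further pathway genes, the 4 higher became 8 with spike-in scaling, 6 with median centring and 3 with normexp or without bounds from 1 array. Of all genes measured on both arrays, the 295 higher became 534 with spike-in scaling, 438 with median centring and 215 with normexp. The 184 lower became 71 with spike-in scaling, 97 with median centring and 75 with normexp, so lower calls fell among all genes too. The 2 lower pathway genes became 1 with the cutoff of 1.5. They became 5 with the authors' processed values or with no filter and no bounds, where dim probes are counted. The share of all genes with dim probes counted, or at the cutoff of 1.5, is not given here. Of the changed genes measured on both arrays, the share that was higher went from 61.6% to 81.9% with median centring, 88.3% with spike-in scaling, 72.5% with no scaling and 74.1% with normexp. The spike-in scaling rests on 8 probes. No paired analysis was possible because there is 1 array of each kind.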

Other observations

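A list of 24 genes of neighbouring lipid mediator pathways was added after the values above were seen, and its genes are named after their own values were seen. Of these, 19 were measured on both arrays, 2 on 1 array and 3 on neither, and with IL-4 1 was higher and 5 were lower by 2-fold or more, beside 3.06% and 3.35% of all genes that passed in the same way. Ch25h, which makes the oxysterol 25-hydroxycholesterol, gave 666 ± 66.9 untreated and 5677 ± 568 with IL-4, 7.95-fold higher. Cyp7b1, which acts on that product, had a log2 difference of 0.68, and the oxysterol receptor Gpr183 had a log2 difference of 0.36. Cyp27a1, the sterol 27-hydroxylase, had a log2 difference of -1.01, which lies at the 2-fold line.

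Fpr1, the formyl peptide receptor next to Fpr2 in function, gave 326 ± 33.4 untreated and 65.7 ± 9.42 with IL-4, 5.32-fold lower. Anxa1, the protein known as a ligand of Fpr2, had a log2 difference of -0.0015 at its brighter probe and -0.17 at its other probe. Among 6 cytochrome P450 genes that oxidise arachidonic acid, Cyp2j9 was 2.42-fold lower and Cyp2s1 was at least 3.42-fold lower. Both were dim, at 116 ± 13.1 and 51.3 ± 7.70 for Cyp2j9 and 105 ± 12.9 and 32.8 ± 7.90 for Cyp2s1. Cyp1b1 and Cyp2j6 had log2 differences of -0.02 and -0.13, and Cyp2c23 and Cyp4a12a were well above background on neither array. Of the endocannabinoid genes, Faah, the anandamide hydrolase, was at least 2.58-fold lower. It was dim, at 67.1 ± 9.06 untreated and 8.93 ± 5.78 with IL-4, the latter not well above background. Daglb, which makes 2-arachidonoylglycerol, had a log2 difference of 0.53. The receptor Cnr2 had a log2 difference of 0.19, while Cnr1 was well above background on neither array.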
